A study of Mus musculus with 12 samples.

Results

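The 8 genes described here make, bind, modify or cut hyaluronan. They are the synthases Has1, Has2 and Has3, the receptor gene Cd44, Tnfaip6, the versican gene Vcan, and the hyaluronidases Hyal1 and Hyal2. They were chosen by their known role and found by gene symbol, with earlier results of these data known, and all 8 were found among the 24147 genes of the deposited read count tables. The RNA came from mouse lens capsules and the lens epithelial cells attached to them, after the fiber cells of the lens had been taken out of living animals to model human cataract surgery. The 12 libraries fall into 4 groups of 3. These are FNcKO (Fibronectin conditional knockout) at 48 h after surgery, FNcKO at 0 h, wild type (WT) at 48 h and WT at 0 h. All mice were adults of 2 months and all had the operation, and no unoperated lens is among the libraries analysed here. FNcKO mice had a Mixed (C57BL/6, 129, FVB/N) strain and WT mice were C57BL/6, so genotype and strain background cannot be told apart. What drives the knockout, which part of the gene is deleted and how many lenses made up a library were not given in the sources used here. This study set out to learn how lens epithelial cells respond to surgery and what part fibronectin plays in posterior capsular opacification, a clouding of the capsule after cataract surgery.

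Hyaluronan is a long, unsulfated sugar chain. The Has enzymes build it at the plasma membrane from UDP-glucuronic acid and UDP-N-acetylglucosamine and push it out of the cell. Cells hold on to it through receptors such as CD44, and matrix proteins such as versican bind it and build it into a hydrated coat. Tnfaip6 encodes TSG-6, which moves the heavy chains of inter-alpha-trypsin inhibitor onto hyaluronan and is known as an inflammation-induced gene. Hyal2 sits on the cell surface and cuts the chain into fragments, and Hyal1 degrades fragments in lysosomes. Hyaluronan-rich matrix is a known part of early wound repair in many tissues.

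Library totals ran from 8368160 to 10862573 counts, and 3 counts corresponded to 0.286 to 0.430 counts per 1000000 (CPM) after TMM scaling, so levels under about that size rest on a handful of reads. The labelled tissue was checked against its markers. Over the 12 libraries Pax6 held 294 to 521 CPM, Foxe3 5.08 to 129.9 CPM and Cdh1 138 to 672 CPM. The targeted gene Fn1 held 146, 298 and 688 CPM in FNcKO at 48 h, 16.8, 9.81 and 8.32 CPM in FNcKO at 0 h, 1515, 528 and 979 CPM in WT at 48 h and 19.0, 23.1 and 15.5 CPM in WT at 0 h. The log2 change of Fn1, FNcKO against WT, was -1.42 at 48 h (SE 0.52, edgeR, adjusted p = 0.713). At 0 h it was -0.72 (SE 0.54, edgeR, adjusted p = 0.609), so Fn1 itself was not called between genotypes at either time. Whole-gene counts do not show which of its exons were read. Markers of other cells moved with time. The summed level of 6 general leukocyte markers was 67.2 to 186 CPM in FNcKO at 48 h and 8.39 to 20.3 CPM in FNcKO at 0 h, with 5 of 6 called higher, and 115 to 372 CPM in WT at 48 h and 14.2 to 34.8 CPM in WT at 0 h, with 6 of 6 called higher. For 11 macrophage and monocyte markers the sums were 195 to 445 CPM in FNcKO at 48 h, 56.5 to 112 CPM in FNcKO at 0 h, 300 to 825 CPM in WT at 48 h and 66.4 to 167 CPM in WT at 0 h, with 6 of 11 called higher in each genotype. For 7 neutrophil markers they were 41.5 to 112 CPM in FNcKO at 48 h, 3.80 to 4.73 CPM in FNcKO at 0 h, 61.3 to 348 CPM in WT at 48 h and 4.82 to 10.2 CPM in WT at 0 h, and of the 5 tested 4 were higher in FNcKO and 5 in WT. Among them, Mpo was at 0 in all 6 libraries of 48 h, S100a9, Mpo and Ngp in FNcKO at 0 h, and Retnlg and Ngp in WT at 0 h. The 10 lens fiber markers summed to 1911 to 24426 CPM in FNcKO at 48 h, 37591 to 68629 CPM in FNcKO at 0 h, 2826 to 15451 CPM in WT at 48 h and 30345 to 49148 CPM in WT at 0 h. Of 6 endothelial markers 4 were higher in each genotype. Of 6 tested fibroblast and corneal stroma markers 3 were higher in FNcKO, and 2 were higher and 2 lower in WT, with summed levels of 407 to 524 CPM in FNcKO at 48 h, 373 to 595 CPM in FNcKO at 0 h, 684 to 979 CPM in WT at 48 h and 529 to 856 CPM in WT at 0 h. Of 10 lens epithelial markers 4 were lower in FNcKO and 3 in WT. Their sums were 11747 to 81660 CPM in FNcKO at 48 h and 96737 to 212999 CPM in FNcKO at 0 h. In WT they were 13594 to 48600 CPM at 48 h and 87660 to 145665 CPM at 0 h, so the times were apart in both genotypes. Of 7 pigment cell markers 3 were lower in FNcKO, and 2 were higher and 2 lower in WT, with sums of 17.4 to 67.3 CPM in FNcKO at 48 h, 151 to 182 CPM in FNcKO at 0 h, 170 to 436 CPM in WT at 48 h and 212 to 295 CPM in WT at 0 h. Of 4 tested corneal epithelium markers 1 was lower in each genotype. The sums of all 5 were 698 to 1346 CPM in FNcKO at 48 h, 1783 to 2666 CPM in FNcKO at 0 h, 364 to 986 CPM in WT at 48 h and 741 to 1115 CPM in WT at 0 h, so the genotypes were apart at 0 h, where none of the 4 passed. None of 6 photoreceptor markers passed in any comparison. In bulk RNA, fewer cells of a type and less RNA per cell cannot be told apart. One deposited table joins 9 libraries, and there the column named for WT 0 h replicate 1 carries the counts of FNcKO 0 h replicate 1. The separate file of each library was used, and results are also given without both of these libraries.

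After surgery the genes did not move as a block. In FNcKO capsules 3 of the 8 passed the threshold of the 48 h against 0 h comparison, and these rose: Has2, Cd44 and Tnfaip6. The test of Tnfaip6 was favoured by the filter on low counts, and with no filter 2 members passed in FNcKO, without Tnfaip6 (edgeR, adjusted p = 0.0653). In WT capsules 6 of the 8 passed: Has2, Cd44 and Hyal2 rose, and Has3, Vcan and Hyal1 fell. The test was edgeR's quasi-likelihood F test over 14560 genes, with a Benjamini-Hochberg adjusted p under 0.05 as the threshold. Over all tested genes the same comparisons called 24.8% of genes in FNcKO, 14.9% as higher and 9.9% as lower, and 32.6% in WT, 19.1% as higher and 13.5% as lower. Higher genes thus made up 60.1% of calls in FNcKO and 58.5% in WT, and with scaling by total counts in place of TMM 82.4% in FNcKO and 76.3% in WT. All libraries of 48 h lay on one side of those of 0 h for 4 members in FNcKO, where 37.5% of all genes did so, and for 7 members in WT, where 51.5% did. Tnfaip6, favoured by the filter, is counted among them in both genotypes. The median log2 change of the members was -0.14 in FNcKO and 0.060 in WT, beside 0.0018 in FNcKO and 0.016 in WT over all genes. Neither the share of calls in FNcKO nor either median sets these genes far from the background, and the counts moved with single libraries. Leaving out 1 library gave 1 to 4 members in FNcKO, lowest on leaving out replicate 1 of FNcKO at 0 h or replicate 2 of FNcKO at 48 h. It gave 2 to 6 members in WT, lowest on leaving out replicate 2 of WT at 0 h or replicate 1 of WT at 48 h. Without both 0 h replicate 1 libraries, 1 member was called in FNcKO and 3 in WT.

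**Figure D1:**
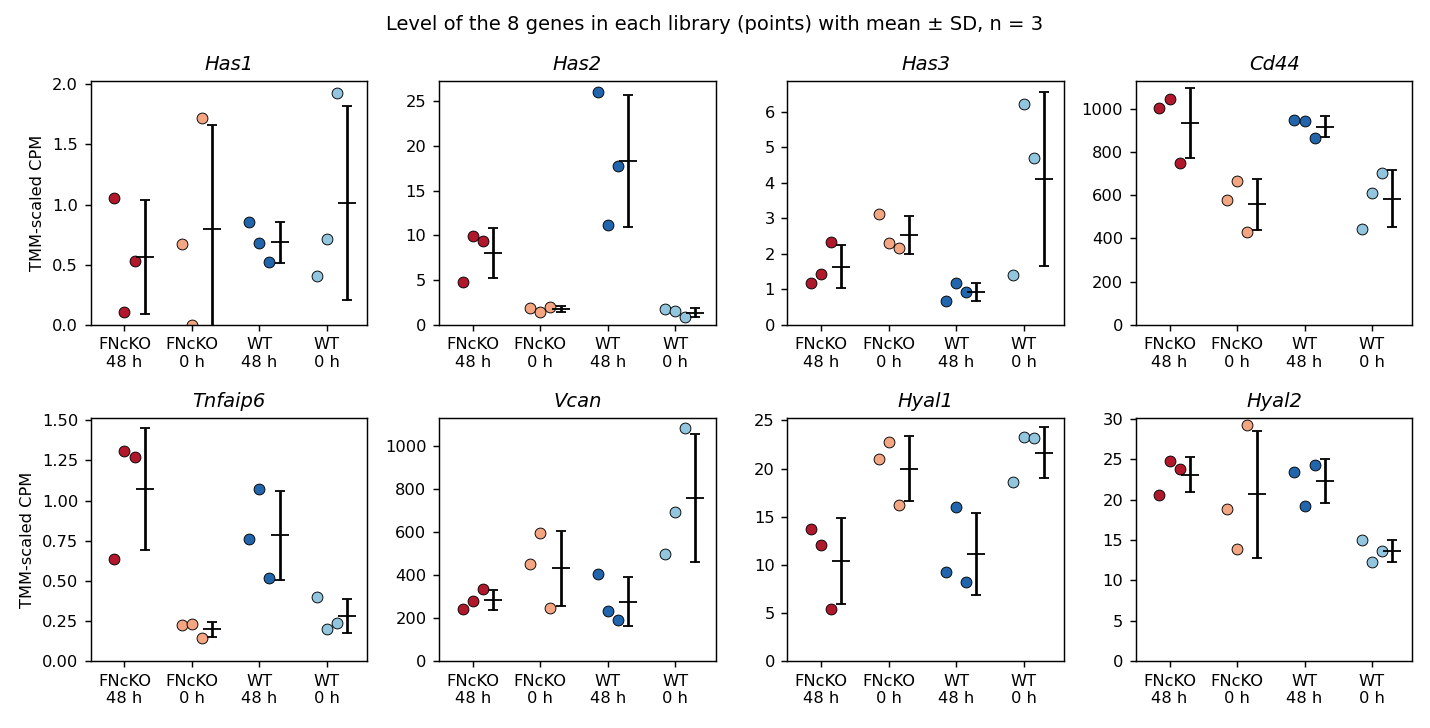
Level of each gene in TMM-scaled CPM (y axis, from 0, with its own scale per gene) in the 4 groups (x axis). Points are libraries and bars are the mean ± SD of 3, cut off at 0 where the SD exceeds the mean. Has2 stands higher in all 6 libraries of 48 h, at 4.75 to 26.0 CPM, than in all 6 of 0 h, at 0.843 to 2.01 CPM.

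Has2 encodes the main hyaluronan synthase of many developing and injured tissues and showed the largest change among the 8 genes in WT. It lies on chromosome 15 from 56665627 to 56694546 (mm10, as for all coordinates of genes here). Its levels were 4.75, 9.94 and 9.30 CPM in FNcKO at 48 h, against 1.90, 1.39 and 2.01 CPM in FNcKO at 0 h. They were 26.0, 11.2 and 17.7 CPM in WT at 48 h, against 1.71, 1.53 and 0.843 CPM in WT at 0 h. Every library of 48 h was above every library of 0 h in both genotypes. Levels of 0 h rest on 12 to 17 reads per library in FNcKO and 7 to 17 in WT, which limits how well a fold is fixed. Has2 rose 4.52-fold in FNcKO (log2 change 2.18, SE 0.42, edgeR, adjusted p = 0.00235) and 13.2-fold in WT (3.72, SE 0.43, edgeR, adjusted p = 6.20e-05). Both calls held in all 21 alternative settings, with log2 changes of 1.99 to 2.47 in FNcKO and 3.39 to 3.99 in WT. The antisense gene Has2os overlaps Has2, and whether the counting used strand was not given in the sources used here. Has2os held at most 0.571 CPM in any library. WT 48 h replicate 1, the library with the highest Has2 level, also had the highest summed leukocyte, macrophage and neutrophil markers, at 372, 825 and 348 CPM. FNcKO 48 h replicate 1, with the lowest Has2 level of that time, had the highest fiber marker sum of that time, 24426 CPM, and the lowest leukocyte sum, 67.2 CPM. By leukocyte sums and in CPM, the remaining libraries of 48 h did not keep this order. In WT, replicate 3 had more Has2 than replicate 2, at 17.7 against 11.2 CPM, but a lower leukocyte sum, at 115 against 170 CPM. In FNcKO, replicate 3 had the highest leukocyte sum, 186 CPM, while its Has2 level of 9.30 CPM was just under the 9.94 CPM of replicate 2. As RPKM, Has2 in replicate 3 was just above replicate 2, at 2.48 against 2.38. The fiber sums of WT at 48 h were 2826, 15451 and 10227 CPM in replicates 1 to 3, the reverse order of Has2. In FNcKO at 48 h they were 12246 CPM in replicate 2 and 1911 CPM in replicate 3, where Has2 in CPM did not keep the reverse order. The part of these markers in the Has2 result was not tested.

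Has3, on chromosome 8 from 106870242 to 106882902, encodes a synthase that is known for making shorter chains. It held 1.16, 1.42 and 2.33 CPM in FNcKO at 48 h, against 3.13, 2.31 and 2.15 CPM in FNcKO at 0 h. In WT it held 0.666, 1.17 and 0.934 CPM at 48 h, against 1.404, 6.22 and 4.70 CPM at 0 h. The FNcKO groups overlapped and the WT groups did not, although WT 0 h replicate 1 stood close to the 48 h libraries. The log2 change of Has3 in FNcKO was -0.63 (SE 0.56, edgeR, adjusted p = 0.450). In WT Has3 fell by 2.14 on the log2 scale, which is 4.403-fold lower (SE 0.57, edgeR, adjusted p = 0.0124). Leaving out WT 0 h replicate 2 took the WT call away (adjusted p = 0.0644), and so did leaving out WT 48 h replicate 1 (0.0509). Has1, the third synthase, lies on chromosome 17 from 17843326 to 17855188 and was near the detection limit, with 0 to 16 reads per library. Its mean level was 0.565 ± 0.475 CPM in FNcKO at 48 h, 0.797 ± 0.868 CPM in FNcKO at 0 h, 0.685 ± 0.169 CPM in WT at 48 h and 1.01 ± 0.806 CPM in WT at 0 h (SD, n = 3 each). The groups overlapped, and the log2 change was -0.44 in FNcKO (SE 1.03, edgeR, adjusted p = 0.802) and -0.53 in WT (SE 0.98, edgeR, adjusted p = 0.701). A change in Has1 was not detectable at this depth.

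The mix of synthase transcripts within a library was compared per gene length, with the deposited RPKM values, because such a share does not depend on how libraries are scaled to each other. Has2 made up 61.5%, 88.9% and 77.2% of the summed Has1, Has2 and Has3 RPKM in FNcKO at 48 h, against 34.5%, 45.5% and 28.5% in FNcKO at 0 h. In WT its share was 92.1%, 83.4% and 91.1% at 48 h, against 48.3%, 20.6% and 10.4% at 0 h. Libraries of the times did not overlap in either genotype (two-sided exact permutation test, p = 0.1 in each, the smallest that 3 against 3 libraries allow). The summed synthase RPKM averaged 2.59 ± 0.669 in FNcKO at 48 h and 1.04 ± 0.320 in FNcKO at 0 h, and 5.42 ± 2.14 in WT at 48 h and 1.47 ± 0.613 in WT at 0 h (SD, n = 3 each). Here too the times were apart in both genotypes (exact permutation p = 0.1 in each). At 48 h the Has3 share was 10.8%, 9.12% and 13.9% in FNcKO against 1.696%, 6.25% and 3.44% in WT, without overlap (exact permutation p = 0.1). The summed RPKM at 48 h was also apart, at 1.88 to 3.21 in FNcKO and 3.51 to 7.73 in WT (exact permutation p = 0.1). The Has2 and Has1 shares at 48 h overlapped between genotypes (exact permutation p = 0.2 and 0.8). At 0 h the shares and the sum all overlapped between genotypes. A share of a sum can move through any of its parts, and Has1 and Has3 values rest on few reads. So do the Has2 values of 0 h, with 7 to 17 reads per library.

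**Figure D2:**
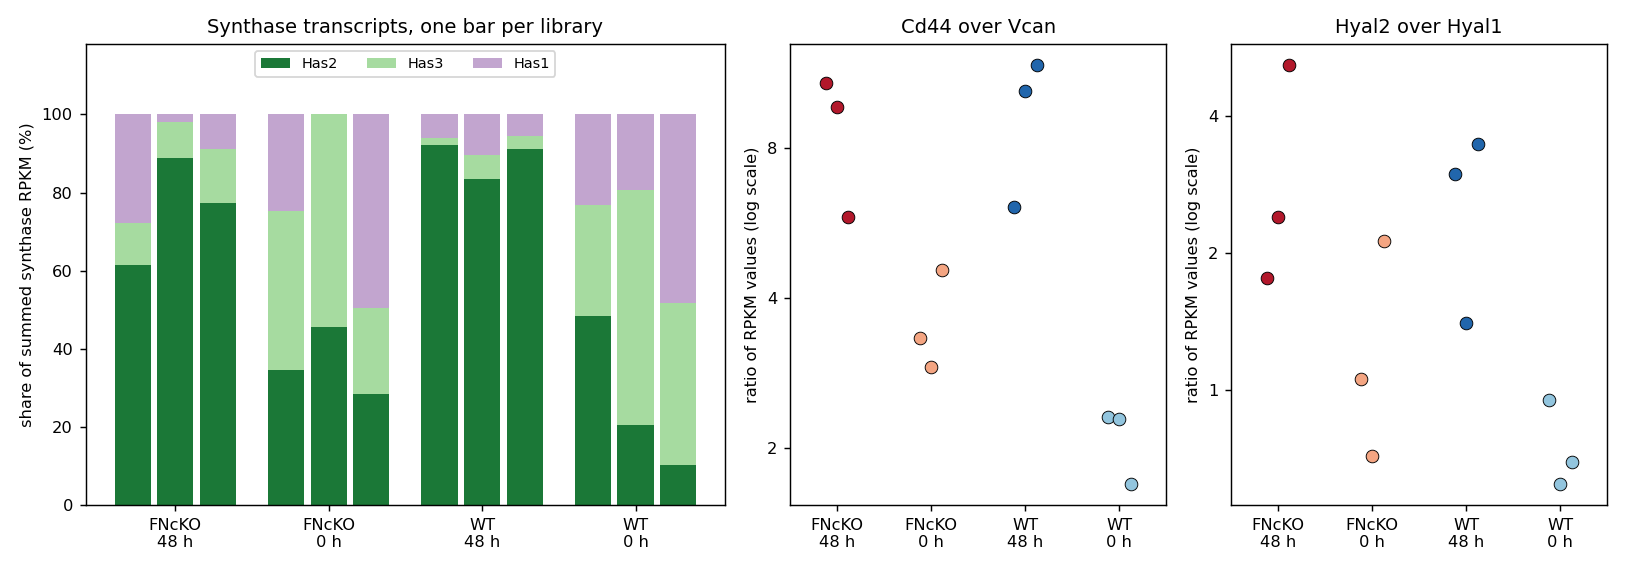
Left, the share of Has2, Has3 and Has1 in the summed RPKM of the synthases (y axis, percent), with 1 stacked bar per library in replicate order within each group (x axis). Middle and right, the ratio of Cd44 to Vcan and of Hyal2 to Hyal1 RPKM (y axes, log scale), with 1 point per library. Has2 takes 61.5% to 92.1% of the synthase signal at 48 h and 10.4% to 48.3% at 0 h, and the Cd44 to Vcan ratio lies at 5.82 to 11.8 at 48 h and 1.69 to 4.55 at 0 h.

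Cd44 encodes the main cell surface receptor for hyaluronan, which many epithelial, mesenchymal and blood cells carry. It lies on chromosome 2 from 102811142 to 102901665 and had the highest level per length of the 8 genes in each group. It held 1006, 1049 and 748 CPM in FNcKO at 48 h, against 579, 665 and 430.3 CPM in FNcKO at 0 h. In WT it held 949.9, 943 and 866 CPM at 48 h, against 442, 609 and 704 CPM at 0 h. The groups of a genotype did not overlap, and the changes were of like size. Cd44 rose 1.67-fold in FNcKO (log2 change 0.74, SE 0.23, edgeR, adjusted p = 0.0310) and 1.57-fold in WT (0.65, SE 0.23, edgeR, adjusted p = 0.0441). Both calls lay near the threshold and held in 14 of 21 alternative settings in FNcKO and 10 of 21 in WT. The FNcKO call did not survive leaving out WT 0 h replicate 2, either of replicates 1 and 3 of FNcKO at 0 h, or either of replicates 1 and 2 of FNcKO at 48 h (adjusted p of 0.0548 to 0.111). The WT call did not survive leaving out replicate 1 or 2 of WT at 0 h, any replicate of WT at 48 h, replicate 1 of FNcKO at 0 h, or replicate 1 or 2 of FNcKO at 48 h (adjusted p of 0.0501 to 0.154). Without both 0 h replicate 1 libraries the log2 change was 0.77 in FNcKO (edgeR, adjusted p = 0.0662) and 0.49 in WT (edgeR, adjusted p = 0.179). Leukocytes carry CD44, and their markers were higher at 48 h as given above. Their part in the Cd44 result was not tested, and whole-gene counts do not separate the splice forms of Cd44.

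Vcan encodes versican, a large chondroitin sulfate proteoglycan whose head domain binds hyaluronan. It lies on chromosome 13 from 89655310 to 89742512. It held 242, 282 and 334 CPM in FNcKO at 48 h, against 452, 594 and 246 CPM in FNcKO at 0 h. In WT it held 405, 235 and 191 CPM at 48 h, against 498, 691 and 1083 CPM at 0 h. FNcKO 0 h replicate 3 lay among the FNcKO libraries of 48 h, while the WT groups did not overlap. The log2 change of Vcan in FNcKO was -0.59 (SE 0.37, edgeR, adjusted p = 0.263). In WT Vcan fell by 1.45 on the log2 scale, which is 2.73-fold lower (SE 0.37, edgeR, adjusted p = 0.0103), and this call held in all 21 alternative settings, with log2 changes of -1.82 to -1.10. FNcKO 0 h replicate 3 had the lowest scaling factor of all libraries, 0.754, and the highest fiber marker sum, 68629 CPM. The fiber markers fell with time in both genotypes, with 4 of 10 called lower in FNcKO and 5 of 10 in WT. Fibroblasts are a known source of versican, and their summed markers are given above. The part of fiber and fibroblast markers in the Vcan result was not tested. Within a library, the ratio of Cd44 to Vcan RPKM was 10.8, 9.66 and 5.82 in FNcKO at 48 h, against 3.33, 2.91 and 4.55 in FNcKO at 0 h. In WT it was 6.09, 10.4 and 11.8 at 48 h, against 2.31, 2.29 and 1.69 at 0 h. The times were apart in both genotypes (exact permutation p = 0.1 in each). At 0 h the FNcKO libraries were also apart from, and above, the WT libraries (exact permutation p = 0.1). At 48 h this ratio overlapped between genotypes (exact permutation p = 0.6).

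Tnfaip6 lies on chromosome 2 from 52038113 to 52056681 and gave 1 to 12 reads per library. It passed the filter on low counts only through libraries of 48 h, which held 12, 12 and 11 reads at the top, so a difference in time was favoured by the filter. It held 0.634, 1.31 and 1.27 CPM in FNcKO at 48 h, against 0.224, 0.231 and 0.143 CPM in FNcKO at 0 h. In WT it held 0.761, 1.07 and 0.519 CPM at 48 h, against 0.401, 0.204 and 0.241 CPM at 0 h. All 6 libraries of 48 h were above all 6 of 0 h. Tnfaip6 rose in FNcKO with a log2 change of 2.33 (SE 0.72, edgeR, adjusted p = 0.0307), and in WT the log2 change was 1.43 (SE 0.68, edgeR, adjusted p = 0.125). That call was lost on leaving out any single replicate of FNcKO at 0 h, or replicate 2 or 3 of FNcKO at 48 h (adjusted p of 0.0771 to 0.0954). It was also lost with no filter and without both 0 h replicate 1 libraries (0.0920). Myeloid cells are a known source of TSG-6, and the part of the higher macrophage and neutrophil markers in this result was not tested.

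The bases in front of Tnfaip6, Cd44 and Vcan are printed from RefSeq (GRCm38.p6), 250 bases before the start and 5′ to 3′ on the gene's strand. Cd44 was called higher at 48 h in both genotypes, Tnfaip6 higher only in FNcKO and Vcan lower only in WT. Of the 8 genes, 6 had an entry, and Has2 and Has3 had none. Both strands were searched for an AP-1 motif (TGANTCA), a TEAD motif (GGAATG) and a STAT motif (TTCNNNGAA), and capitals mark the matches. The Tnfaip6 window is chr2:52037863-52038112 (+), that of Cd44 is chr2:102901666-102901915 (-) and that of Vcan is chr13:89742513-89742762 (-).
Tnfaip6: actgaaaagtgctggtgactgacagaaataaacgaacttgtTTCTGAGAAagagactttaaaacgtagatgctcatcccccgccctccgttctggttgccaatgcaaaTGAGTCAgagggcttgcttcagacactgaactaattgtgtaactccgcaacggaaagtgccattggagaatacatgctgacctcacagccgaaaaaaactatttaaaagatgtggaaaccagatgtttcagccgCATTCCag
Cd44: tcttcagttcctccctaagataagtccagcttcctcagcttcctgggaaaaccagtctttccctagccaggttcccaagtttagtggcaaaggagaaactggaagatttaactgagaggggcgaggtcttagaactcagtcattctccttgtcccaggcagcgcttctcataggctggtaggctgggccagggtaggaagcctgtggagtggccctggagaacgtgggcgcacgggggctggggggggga
Vcan: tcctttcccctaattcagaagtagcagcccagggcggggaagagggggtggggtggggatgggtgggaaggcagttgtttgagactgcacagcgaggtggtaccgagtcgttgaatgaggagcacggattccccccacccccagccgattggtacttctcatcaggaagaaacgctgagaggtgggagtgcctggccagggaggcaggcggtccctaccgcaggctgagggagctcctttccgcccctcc
In Tnfaip6 the STAT match TTCTGAGAA begins 209 bases before the start, the AP-1 match TGAGTCA 142 bases before it and the TEAD match, read as CATTCC on this strand, 8 bases before it. They do not overlap each other. Among 32851 promoter windows of the same length 7.02% held the STAT motif, 6.75% the AP-1 motif and 12.6% the TEAD motif. The windows of Cd44, Vcan, Has1 and Hyal1 held no match to these letters, and that of Hyal2 held 1 TEAD match, 229 bases before the start. A match describes letters and is not a shown binding site.

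The hyaluronidases lie next to each other on chromosome 9, Hyal2 from 107569163 to 107572778 and Hyal1 from 107576952 to 107580133, with 4173 bases between them. In WT they moved in opposite directions. Hyal1 held 13.7, 12.1 and 5.39 CPM in FNcKO at 48 h, against 21.0, 22.7 and 16.2 CPM in FNcKO at 0 h. In WT it held 9.23, 16.0 and 8.20 CPM at 48 h, against 18.6, 23.3 and 23.1 CPM at 0 h. Every library of 48 h was below every library of 0 h. In FNcKO the log2 change of Hyal1 was -0.94 and missed the threshold (SE 0.33, edgeR, adjusted p = 0.0538). In WT Hyal1 fell by 0.95 on the log2 scale, which is 1.94-fold lower (SE 0.33, edgeR, adjusted p = 0.0407). The WT call did not hold on leaving out any single replicate of WT at 0 h, replicate 1 or 3 of WT at 48 h, or replicate 1 of FNcKO at 0 h (adjusted p of 0.0555 to 0.142), or with total-count scaling (0.104). The FNcKO change passed in 6 of 21 alternative settings, among them on leaving out replicate 2 of WT at 48 h (0.0375), replicate 3 of FNcKO at 0 h (0.0488) or replicate 1 of FNcKO at 48 h (0.0297). Naa80 overlaps Hyal1 on the same strand in the annotation, while no gene of the count tables does, so reads of that stretch may have been counted for Hyal1.

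Hyal2 held 20.6, 24.8 and 23.8 CPM in FNcKO at 48 h, against 18.9, 13.9 and 29.3 CPM in FNcKO at 0 h. In WT it held 23.4, 19.2 and 24.3 CPM at 48 h, against 14.9, 12.2 and 13.6 CPM at 0 h. The FNcKO groups overlapped, since FNcKO 0 h replicate 3 was the highest library of all, and the WT groups were apart. In FNcKO the log2 change of Hyal2 was 0.16 (SE 0.24, edgeR, adjusted p = 0.676). In WT Hyal2 rose 1.64-fold (log2 change 0.71, SE 0.25, edgeR, adjusted p = 0.0405). The call did not hold on leaving out any single replicate of WT at 0 h, replicate 1 or 3 of WT at 48 h, replicate 1 of FNcKO at 0 h, or replicate 2 of FNcKO at 48 h (adjusted p of 0.0502 to 0.141). Without both 0 h replicate 1 libraries neither WT call held (adjusted p = 0.0761 for Hyal1 and 0.0787 for Hyal2, edgeR). Within a library, the ratio of Hyal2 to Hyal1 RPKM was 1.76, 2.41 and 5.19 in FNcKO at 48 h, against 1.06, 0.717 and 2.12 in FNcKO at 0 h, with overlap (two-sided exact permutation test, p = 0.2). In WT it was 2.98, 1.404 and 3.48 at 48 h, against 0.947, 0.619 and 0.692 at 0 h, without overlap (exact permutation p = 0.1). Between genotypes this ratio overlapped at 48 h (exact permutation p = 0.8) and at 0 h (exact permutation p = 0.2).

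**Figure D3:**
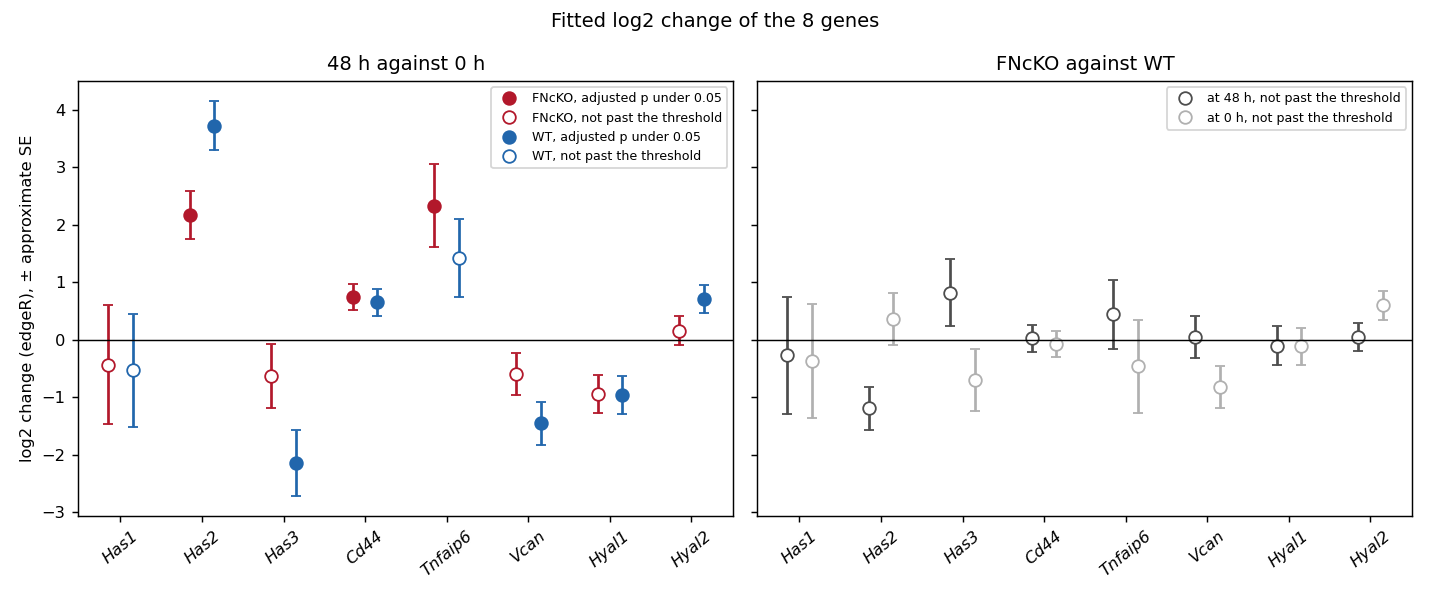
Fitted log2 change of the 8 genes with its approximate SE (y axis), at left for 48 h against 0 h in FNcKO and WT and at right for FNcKO against WT at 48 h and at 0 h. Filled points have an adjusted p under 0.05. Has2 has log2 changes of 2.18 in FNcKO and 3.72 in WT, and no gene is filled at right.

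Between genotypes none of the 8 genes passed the threshold, at 48 h or at 0 h. Over all genes the comparison of FNcKO with WT called 35 genes at 48 h, 0.24%, and 21 genes at 0 h, 0.144%. Has2 was the member with the clearest separation at 48 h. All 3 FNcKO libraries, at 4.75 to 9.94 CPM, lay below all 3 WT libraries, at 11.2 to 26.0 CPM, and such separation was seen for 9.74% of all genes. The log2 change of Has2 was -1.19 (SE 0.37, edgeR, unadjusted p = 0.00664, adjusted p = 0.460). It ran from -1.45 to -0.85 over the 21 alternatives, with adjusted p-values of 0.197 to 1. The difference of its 48 h responses, FNcKO minus WT, was -1.55 on the log2 scale (SE 0.59, edgeR, unadjusted p = 0.0198, adjusted p = 0.945). A weaker Has2 response in FNcKO was therefore not established over the 14560 genes tested. No gene passed for that difference, with 735 genes, 5.05%, at an unadjusted p under 0.05, and DESeq2 called 28. The summed leukocyte markers at 48 h overlapped between genotypes, at 67.2 to 186 CPM in FNcKO and 115 to 372 CPM in WT, and none of the 6 passed. Other marker sums were apart between genotypes at 48 h. Those of fibroblasts and corneal stroma were 407 to 524 CPM in FNcKO and 684 to 979 CPM in WT, with 1 of 6 tested markers called lower in FNcKO. Those of pigment cells were 17.4 to 67.3 CPM in FNcKO and 170 to 436 CPM in WT, with 3 of 7 called lower in FNcKO. Their part in the Has2 difference was not tested. At 0 h no member had its groups apart, as 16.6% of all genes did, and 2 members had an unadjusted p under 0.05, beside 11% of all genes. Hyal2 had a log2 change of 0.60, FNcKO against WT (SE 0.25, edgeR, adjusted p = 0.414), and Vcan one of -0.81 (SE 0.37, edgeR, adjusted p = 0.447). The log2 changes of Has1, Has3 and Tnfaip6 at 0 h were -0.37, -0.69 and -0.46, with SEs of 0.99, 0.54 and 0.81. Those of Has2, Cd44 and Hyal1 were 0.35, -0.068 and -0.11, with SEs of 0.45, 0.23 and 0.33. Averaged over both times, no member passed, and 70 genes did, 0.481%. Has3 at 48 h had a log2 change of 0.82 (SE 0.58, edgeR, adjusted p = 1), Has1 one of -0.27 (SE 1.02) and Tnfaip6 one of 0.44 (SE 0.60). The absolute log2 changes of Cd44, Vcan, Hyal1 and Hyal2 at 48 h were 0.10 or less, with SEs of 0.23 to 0.36.

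Per gene length, the order of the 8 genes was led by Cd44 and Vcan in every group. In FNcKO at 48 h their mean RPKM was 174 ± 21.1 for Cd44, 20.7 ± 4.51 for Vcan, 13.2 ± 1.56 for Hyal2, 4.99 ± 1.94 for Hyal1 and 2.00 ± 0.736 for Has2 (SD, n = 3 each). The ranges of these 5 neighbours did not overlap, whereas those of Tnfaip6, Has3 and Has1 below them, with mean RPKM of 0.712, 0.297 and 0.286, did. In FNcKO at 0 h Cd44 (87.3 ± 27.1 RPKM) stood above Vcan (26.3 ± 12.8 RPKM), Hyal2 and Hyal1 overlapped at 9.45 and 8.11 RPKM, and the other genes were under 0.4 RPKM on average with overlapping neighbours. In WT at 48 h Cd44 (183 ± 14.2 RPKM) was followed by Vcan (21.4 ± 9.46 RPKM) and Hyal2 (13.5 ± 1.76 RPKM), whose ranges overlapped, and Has2 (4.87 ± 2.12 RPKM) overlapped with Hyal1 (5.75 ± 2.16 RPKM). In WT at 0 h the order was Cd44 (100.8 ± 25.3 RPKM), Vcan (50.1 ± 19.5 RPKM), Hyal1 (9.70 ± 1.698 RPKM) and Hyal2 (7.11 ± 0.274 RPKM), each apart from the next, and Has2 came after Has3 and Has1 at 0.311 RPKM. The place of Has2 thus moved up from the overlapping low end at 0 h to the fifth place at 48 h in both genotypes.

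Genes around hyaluronan, CD44 and versican were described with 8 lists of 69 genes in all, of which 55 were tested. In FNcKO 14 of the 55 were higher at 48 h and 3 lower, and in WT 15 were higher and 3 lower. Beside these counts stand 14.9% higher and 9.9% lower over all genes in FNcKO, and 19.1% and 13.5% in WT. The median log2 change over the 55 genes was 0.38 in FNcKO and 0.22 in WT. Between genotypes none of the 55 passed, in any of the 4 comparisons that involve genotype.

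Of 8 enzymes that make the sugar precursors, 2 rose in each genotype and none fell. Ugdh, which makes UDP-glucuronic acid, rose 3.52-fold in FNcKO (SE of the log2 change 0.29, edgeR, adjusted p = 0.000868) and 3.33-fold in WT (SE 0.29, edgeR, adjusted p = 0.000741). Uap1, which makes UDP-N-acetylglucosamine, rose 1.56-fold in FNcKO (edgeR, adjusted p = 0.0427) and 1.68-fold in WT (edgeR, adjusted p = 0.0170). Of 7 tested genes for breakdown and uptake, Hexa, a subunit of lysosomal hexosaminidase, fell by 0.57 on the log2 scale in FNcKO (edgeR, adjusted p = 0.0374). In WT its log2 change was -0.32 (edgeR, adjusted p = 0.200), and the difference of its responses was not called (edgeR, adjusted p = 0.946). Cemip encodes a hyaluronan-binding protein needed for hyaluronan depolymerisation. Its log2 change in FNcKO was 0.98 (edgeR, adjusted p = 0.137), it rose 4.22-fold in WT (edgeR, adjusted p = 0.00450), and the difference of the responses was not called (edgeR, adjusted p = 0.945). Among 6 tested receptors and binders, the hyaluronan receptor gene Layn rose 5.10-fold in FNcKO and 5.09-fold in WT (edgeR, adjusted p = 0.000373 and 0.000252). Hmmr, which encodes a hyaluronan-binding protein that also acts at the mitotic spindle, rose 4.42-fold in FNcKO and 4.83-fold in WT (edgeR, adjusted p = 0.00931 and 0.00548). Habp4 fell by 0.54 on the log2 scale in WT (edgeR, adjusted p = 0.0489), where its libraries overlapped. In FNcKO its log2 change was -0.48 (edgeR, adjusted p = 0.0878), with the libraries apart. The difference of its responses was not called (edgeR, adjusted p = 0.989).

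Only 3 of 7 hyalectan and link protein genes were tested, and Hapln1, the link protein that locks versican onto hyaluronan, fell in both genotypes. It averaged 0.215 ± 0.186 CPM in FNcKO at 48 h and 2.85 ± 1.11 CPM in FNcKO at 0 h, and 0.133 ± 0.0643 CPM in WT at 48 h and 3.07 ± 1.29 CPM in WT at 0 h (SD, n = 3 each). The log2 change was -3.65 in FNcKO (SE 0.76, edgeR, adjusted p = 0.00389) and -4.403 in WT (SE 0.80, edgeR, adjusted p = 0.00122). Mean levels of 48 h lay below the level of 3 counts in both genotypes, so the size of the fall is poorly fixed. Hapln1 passed the filter on low counts only through libraries of 0 h, which favoured a difference in time. It was called in both genotypes in all 21 alternative settings, the one with no filter among them. In the list of heavy chain and pentraxin genes, 4 of 7 were tested. Ptx3, a pentraxin that cross-links heavy chains on hyaluronan, rose 7.84-fold in FNcKO (SE of the log2 change 0.62, edgeR, adjusted p = 0.00496) and 16.3-fold in WT (SE 0.62, edgeR, adjusted p = 0.000646). Without FNcKO 48 h replicate 3 its log2 change in FNcKO was 2.18 instead of 2.97, and without WT 48 h replicate 1 that in WT was 3.41 instead of 4.03. Itih5, a heavy chain gene, rose 3.39-fold in WT (edgeR, adjusted p = 0.0120). In FNcKO its log2 change was 0.70 (edgeR, adjusted p = 0.308), and the difference of its responses was not called (edgeR, adjusted p = 0.945). Of 5 tested ADAMTS proteases known to cut versican, Adamts1 rose 4.55-fold in FNcKO (edgeR, adjusted p = 0.00174) and 7.13-fold in WT (edgeR, adjusted p = 0.000286), and no other passed.

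Of 7 tested genes for CD44 shedding and its link to the cytoskeleton, 2 rose in each genotype. Msn encodes moesin, which ties CD44 to actin. It averaged 975 ± 380 CPM in FNcKO at 48 h and 93.6 ± 9.69 CPM in FNcKO at 0 h, and 991 ± 230.4 CPM in WT at 48 h and 83.9 ± 10.3 CPM in WT at 0 h (SD, n = 3 each). It rose 10.4-fold in FNcKO and 11.8-fold in WT (edgeR, adjusted p = 1.47e-05 and 9.16e-06). The membrane protease gene Mmp14 rose 4.74-fold in FNcKO and 5.61-fold in WT (edgeR, adjusted p = 8.25e-05 and 2.87e-05). Moesin is abundant in leukocytes, and their part was not tested. Of 15 genes for the chondroitin sulfate chains that versican carries, 6 rose and 1 fell in FNcKO, and 5 rose and 1 fell in WT. The chain-building genes Chsy3 and Chpf2 and the sulfotransferase gene Chst11 rose 3.55-fold, 2.00-fold and 2.64-fold in FNcKO and 3.25-fold, 2.50-fold and 2.53-fold in WT (edgeR, highest adjusted p = 0.00817 in FNcKO and 0.00563 in WT). Csgalnact1, which starts the chain, rose in FNcKO with a log2 change of 3.62 (edgeR, adjusted p = 0.0133). It was 5.68 without FNcKO 0 h replicate 2, and the call was lost without FNcKO 0 h replicate 1 (adjusted p = 0.0591). The 1 gene of this list that fell in FNcKO, the sulfotransferase gene Chst12, is named after its values were seen (log2 change -0.78, edgeR, adjusted p = 0.0186). In WT Xylt1, the enzyme that puts the first sugar on the core protein, fell by 1.64 (edgeR, adjusted p = 0.0393). None of the 15 genes was called for the difference of the responses. A change of Csgalnact1, Chst12 or Xylt1 particular to 1 genotype was therefore not shown. Calls near the threshold moved with single libraries. Out of 12 left-out libraries, the call was lost for 6 with Uap1 in FNcKO and 3 in WT, 4 with Hexa in FNcKO, 8 with Habp4 in WT and 7 with Xylt1 in WT, with a highest adjusted p of 0.198.

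**Figure D4:**
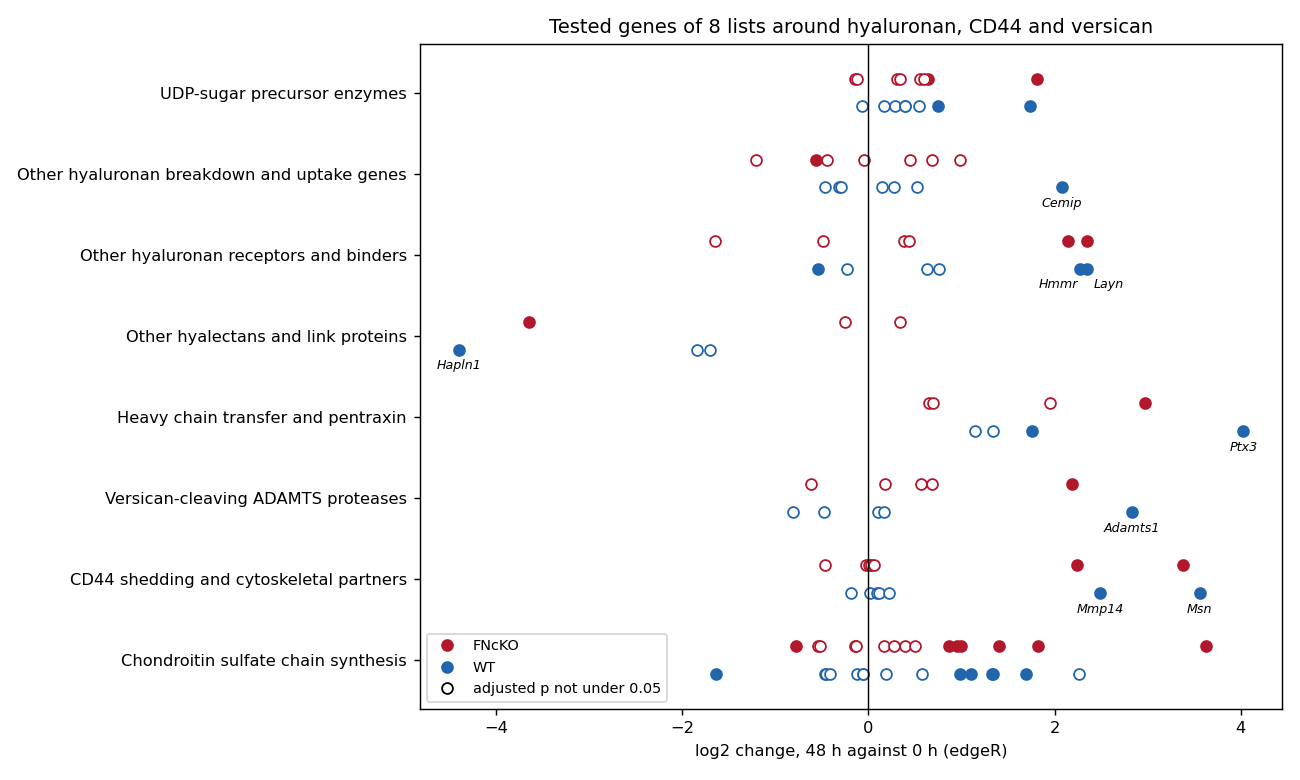
Log2 change of 48 h against 0 h (x axis) for the tested genes of the 8 lists (y axis), with FNcKO above WT in each list. Filled points have an adjusted p under 0.05, and called genes of WT beyond 2 on the log2 scale are named. Hapln1 stands alone at the low end at -3.65 in FNcKO and -4.403 in WT, while Ptx3 is at 2.97 and 4.03.

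To describe company rather than shared control, each gene was set beside those with the most similar profile over the 12 libraries, by the root mean square difference of log2 CPM centred on each gene's own mean. Has2 was closest to Smtn at 0.19, then Ccl17 at 0.40 and Tfpi2 at 0.41, beside a root mean square of 1.499 for Has2 about its own mean. For Cd44 the closest gene was Cd47 (0.17, beside 0.42). Vcan was closest to Fras1 (0.29), Fbn2 (0.31) and Sorcs1 (0.31), beside its own 0.72. Hyal1 was closest to Cyb5d2 (0.13, beside 0.63) and Hyal2 to Psma7 (0.11, beside 0.39). Tnfaip6 was closest to Net1 (0.23, beside 0.72), with a profile that rests on 1 to 12 reads per library. Has1 and Has3, which are also low, had no neighbour under 0.52 and 0.36, beside 0.90 and 0.82.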

How the data were processed

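The authors deposited a whole-number read count per gene for each of the 12 libraries, with gene coordinates, a gene length (headed as coding length) and, per the file headers, an RPKM value, which equals the count per that length and library total. Per the labels' protocols, stranded TruSeq libraries of total RNA were read on a HiSeq instrument. Per the submitters' processing notes, the tools were edgeR 3.16.5, HTSeq 0.6.1p1, TopHat2 2.1.0, Trim Galore 0.4.4, bedtools 2.17, SAMtools 1.4 and FastQC, with the mm10 build and no roles given. Some 163 entries with a repeated symbol, holding at most 0.163% of a library's counts, were kept as separate entries.

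Counts were fitted in R 4.3.3 with edgeR 4.0.16, by filterByExpr, TMM scaling and the quasi-likelihood model in the form used before version 4, with robust dispersion and 4 group means over all 12 libraries. The p-values were adjusted by Benjamini-Hochberg over the 14560 genes tested in each of 6 comparisons. TMM factors ran from 0.754 to 1.165. The SE of a log2 change is its size divided by the square root of F, an approximation. RPKM ratios, shares and sums within libraries were compared by exact permutation tests, with no adjustment for their number. The 3 libraries of a group are biological replicates per the series' design text. The labels name no batch, and replicate numbers were not taken to pair libraries. DESeq2 1.42.0 was an alternative. The model was also run on simulated counts, with far fewer changed genes than the comparisons over time called. No result given here rests on that run.

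The 8 members and all lists were chosen with earlier results of these data known. The 8 members were to be named in the comparisons over time and between genotypes, and from each list the up to 4 called genes of a comparison with the largest absolute log2 change, and for likeness the closest genes by profile.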

Additional observations from a re-analysis of the deposited data

How the results depend on the processing

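Over 21 alternatives, Has2 stayed past the threshold in both comparisons over time and Vcan in WT, and no member passed in a comparison between genotypes. The other member calls over time changed in at least 1 alternative. With 3 members called in FNcKO and 6 in WT, leaving out both 0 h replicate 1 libraries gave 1 in FNcKO and 3 in WT, and fitting only the libraries compared gave 1 in FNcKO. Has1 had too few reads to be tested in fits of only the libraries compared, and Tnfaip6 could be tested there only at 48 h. Leaving out 1 library gave 1 to 4 members in FNcKO and 2 to 6 in WT. Calls over all genes then ran from 2232 to 4095 over time in FNcKO, 3209 to 5220 over time in WT, 10 to 46 between genotypes at 48 h, 2 to 28 at 0 h, 0 to 1 for the difference of the responses and 34 to 81 for the average over times. Without both 0 h replicate 1 libraries these counts were 2299 over time in FNcKO, 14 at 48 h, 2 at 0 h and 17 for the average, with fewer libraries in the fit. DESeq2 called 122 genes between genotypes at 48 h, 130 at 0 h, 28 for the difference and 288 for the average. The libraries compared alone gave 7 at 48 h, the version 4 defaults of edgeR, added after the data were seen, 59, and total counts 10 at 0 h. The cause was not tested.

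With the replicate number as a block, 3 members were called in FNcKO, where Tnfaip6 lost its call (adjusted p = 0.0561) and Hyal1 gained one (0.0391), and 5 in WT, where Cd44 lost its call (0.0687). Over all genes, 3048 were called in FNcKO, 4184 in WT and 1 for the difference of the responses. Of 18 same-numbered pairs of libraries, 4 had a correlation of deviations over 0.1 (range -0.47 to 0.29). With 3 libraries per group this cannot show whether same-numbered libraries shared a batch, and the labels name none. Scaling by total counts shifted the median log2 change of all genes by 0.28 in FNcKO and 0.21 in WT. It gave 1033 CPM for Cd44 and 25.03 CPM for Hyal2 in WT at 48 h. It turned small uncalled genotype values at 48 h to -0.072 for Cd44, -0.044 for Vcan and -0.035 for Hyal2, and the average to -0.056 for Has3. Without both 0 h replicate 1 libraries the averages were -0.23 for Has3 and 0.12 for Tnfaip6, and with no filter the difference of the Hyal1 responses was -0.0033.

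With 1 library left out, uncalled log2 values changed sign as follows. Has1 ran from -1.23 to 0.68 over time in FNcKO, -0.92 to 0.30 over time in WT, -1.07 to 0.20 between genotypes at 48 h, -1.52 to 0.47 at 0 h, -0.74 to 1.24 for the difference of the responses and -0.90 to 0.098 for the average. Cd44 ran from -0.068 to 0.16 at 48 h, -0.23 to 0.096 at 0 h, -0.084 to 0.26 for the difference and -0.10 to 0.056 for the average. Hyal1 ran from -0.35 to 0.26 at 48 h, -0.21 to 0.026 at 0 h, -0.24 to 0.37 for the difference and -0.23 to 0.072 for the average. Hyal2 ran from -0.059 to 0.45 over time in FNcKO and -0.049 to 0.12 at 48 h, Vcan from -0.16 to 0.42 at 48 h, and the averages from -0.14 to 0.27 for Has3 and -0.12 to 0.16 for Tnfaip6. Of the log2 values of named genes under alternatives, 1463 kept direction and side, 90 lost the call, 6 gained it and 56 changed sign. Genes with few reads, Has1, Has3 and Tnfaip6, are those where depth limits the comparison most. Has2 also had few reads at 0 h, with 7 to 17 per library.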
